A study of Mus musculus with 15 samples.

Results

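The cytosolic ribosomal protein genes were examined in 15 lists of H3K4me3 islands from mouse liver. They were taken from GENCODE M21 as the protein-coding genes whose symbol is Rpl or Rps followed by a digit, together with Rplp0, Rplp1, Rplp2 and Rpsa, leaving out the kinases named Rps6k, the Rps19bp genes and names with -ps. This gave 85 genes of 21755 protein-coding genes on chromosomes 1 to 19 and X. Of these, 52 belong to the 60S subunit, the stalk included, and 33 to the 40S subunit. By symbol, 8 are paralogs or retrocopies of another gene in the set (Rpl10l, Rpl22l1, Rpl36al, Rpl39l, Rpl3l, Rpl7l1, Rps27l and Rps27rt), and the other 77 are called core genes here.

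Ribosomal proteins pack around the ribosomal RNAs to form the small and the large subunit of the cytosolic ribosome. Their genes are short, are transcribed at a high rate in almost every cell, often carry snoRNAs in their introns, and start transcription within a tract of pyrimidines through which mTOR signalling controls the translation of their mRNAs. Trimethylation of histone H3 at lysine 4 (H3K4me3) is a mark of the nucleosomes around active start sites, and the liver, which makes most plasma proteins, holds many ribosomes.

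The livers came from 15 wild-type females of 6 litters (strain C57BL/6 in the labels, C57BL/6J in the study's methods), with 3 mice on each of 5 diets and 1 library per mouse. The groups were the standard diet fed ad libitum (SD), caloric restriction with the standard formula (CR), a high-fat diet ad libitum (HF), a diet whose maize was replaced by yellow corn without anthocyanins (YD) and the same with the near-isogenic purple corn rich in anthocyanins (RD). Feeding started at 3 months of age and lasted 10 months, while the labels give an age of 12 months. H3K4me3 chromatin was taken from formalin-fixed, paraffin-embedded liver (PAT-ChIP-seq), and each library was reduced by the authors to a list of enriched islands. An island is a run of enriched windows of 200 bp, joined over gaps of up to 400 bp, with a score that adds up the enrichment of its windows. A gene was counted as marked when an island lay within 1 kb of any of its start sites, and its width and score were those of the highest-scoring such island. Scores are not scaled between libraries, so each was turned into its percentile among all protein-coding genes of the same library, where a gene without an island takes the tied lowest place. That lowest place lay between percentile 22.7 and 41.2, depending on how many genes were marked. The libraries are named by diet and replicate number, and values given in a row of 3 follow replicates 1, 2 and 3.

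The number of reads behind a list, recovered from the scores, ranged from 5589269 to 15449854, and the number of islands from 7825 to 33752. YD replicate 1 had the most reads and the fewest islands. The share of all protein-coding genes that was marked ran from 17.5% in YD replicate 3 to 54.6% in HF replicate 1, and YD replicate 3 was the lowest of the 15 on this measure. The tissue label was checked on marker genes. Of 10 hepatocyte markers, 6 to 10 were marked per library and 5 in all 15. Of 5 endothelial markers between 0 and 5 were marked, of 5 Kupffer cell markers between 0 and 3, of 5 stellate cell markers between 0 and 3, of 5 cholangiocyte markers between 0 and 2, and of 5 lymphocyte markers 0 or 1, with none of these 25 genes marked in all 15 libraries. The part of other liver cells in the values below was not tested. In whole liver, a change in the mark per cell and a change in the share of cells that carry it cannot be told apart.

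The pyrimidine tract for which the starts of these genes are known is shown first, although its letters were found in a minority of them. A 300 base RefSeq promoter window on GRCm38.p6, from 250 bases before the start to 50 after it, was matched by symbol for 65 of the 85 genes. The letters CTTTCC, the core of such a tract, stood on the sense strand of the 100 bases around the start in 21 of the 65 genes (32.3%) and in 5.15% of 16433 protein-coding genes with a window. On the opposite strand the same letters were found in 2 of the 65 genes (3.08%) and in 4.70% of protein-coding genes. Below, 8 windows of 30 bases are given 5′ to 3′ on the gene's strand, with CTTTCC in capitals. They were chosen to show the tract at genes with islands in all 15 libraries (Rpl13a, Rpl18, Rps10 and Rps27), in 14 (Rpl28 and Rpl35a) and in 13 (Rpl38), and at the retrocopy Rps27rt, which had no island in any library. The windows lie at chr7:45128719-45128748 on the minus strand (Rpl13a), chr7:45718062-45718091 on the plus strand (Rpl18), chr7:4792955-4792984 on the plus strand (Rpl28), chr16:33056472-33056501 on the plus strand (Rpl35a), chr11:114668568-114668597 on the plus strand (Rpl38), chr17:27635223-27635252 on the minus strand (Rps10), chr3:90213630-90213659 on the minus strand (Rps27) and chr9:114982722-114982751 on the minus strand (Rps27rt).
Rpl13a: caagacctcctcCTTTCCcaggcggctgcc
Rpl18: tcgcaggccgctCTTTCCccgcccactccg
Rpl28: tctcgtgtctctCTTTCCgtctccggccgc
Rpl35a: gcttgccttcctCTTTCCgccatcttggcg
Rpl38: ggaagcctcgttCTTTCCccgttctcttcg
Rps10: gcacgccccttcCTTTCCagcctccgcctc
Rps27: ccgctttcgctcCTTTCCggcggtgacgac
Rps27rt: acttatcccttgCTTTCCggcggtgacgac
In each of these windows the tract began 0 to 9 bases after the RefSeq start. Rps27 and Rps27rt were identical at all 18 of the last 18 bases, from the tract onwards, and at 4 of the 12 bases before it. Of the core genes with a window, the 18 with the tract near the start were marked in all 15 libraries in 10 cases, with a median percentile of 89.5 and a median width of 2150 bp, and the 39 without it in 17 cases, with medians of 88.1 and 1800 bp. Of other motifs counted over the 300 bases, CCGGAAG, a site of ETS family factors, was found on the sense strand in 26.2% of the 65 genes and 7.42% of all, and on the opposite strand in 15.4% and 7.28%. The TATA box letters TATAAA were found on the sense strand in 9.23% against 9.44%, and on the opposite strand in 4.62% against 6.55%. CCGGAAG can share the last bases of CTTTCC, and such overlaps were counted for both. A match is a description of the window only.

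Most ribosomal protein genes were marked in most livers. An island was present in all 15 libraries at 34 of the 85 genes (40%), and at 9.46% of all protein-coding genes. A further 37 genes were marked in 13 or 14 libraries, 11 in fewer, and 3 in none. All 77 core genes were marked in at least 5 libraries, and in all 3 HF libraries every core gene carried an island. Among the 48 genes marked in some libraries but not in others, 34 lacked the island in YD replicate 3, and 18 lacked it there alone. Without that library, 52 genes were marked in all of the other 14, against 13.3% of protein-coding genes.

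**Figure D1:**
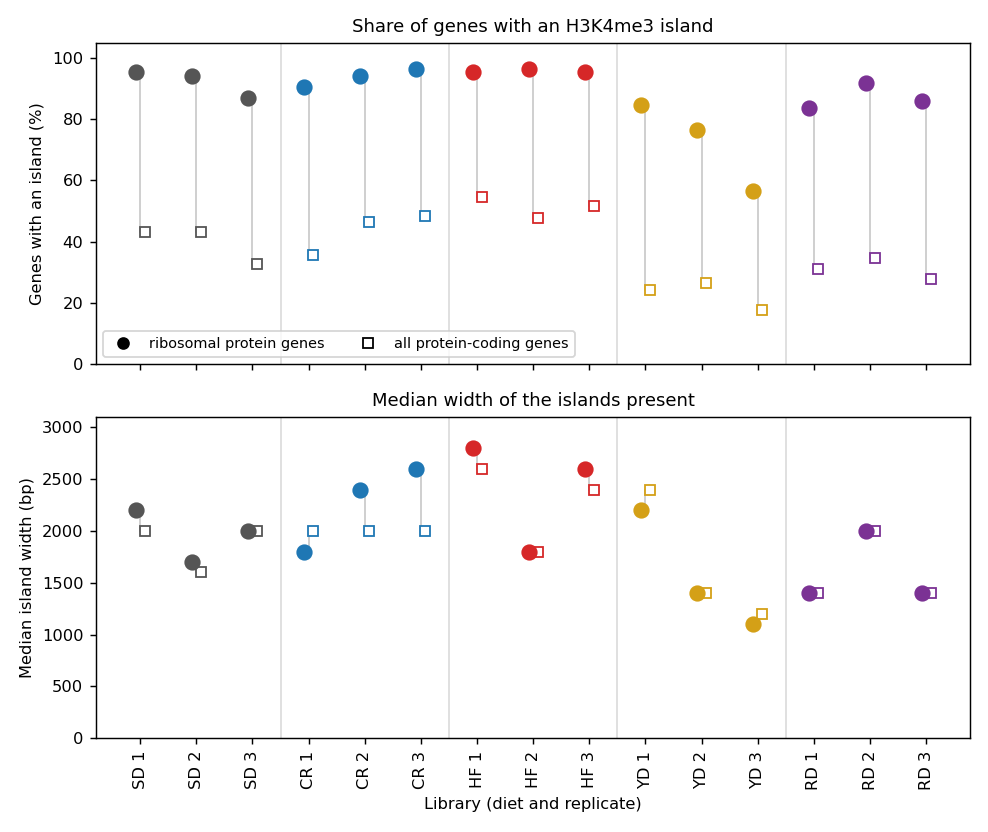
Share of genes with an H3K4me3 island (%, upper panel) and median width of the islands present (bp, lower panel) in each of the 15 libraries, for the 85 ribosomal protein genes (filled circles) and all 21755 protein-coding genes (open squares), coloured by diet. The share is above that of all genes in every library and is lowest in YD replicate 3, at 56.5% against 17.5%, while the widths of both gene groups lie close together.

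Per library, 81, 80 and 74 of the 85 genes were marked in SD, 77, 80 and 82 in CR, 81, 82 and 81 in HF, 72, 65 and 48 in YD, and 71, 78 and 73 in RD. The YD libraries were the lowest as a group, overlapping RD through 1 library, and the CR and HF libraries overlapped SD. The diet means of the share of all protein-coding genes stood in the same order, with 43.1%, 43.0% and 32.7% in SD, 35.5%, 46.5% and 48.2% in CR, 54.6%, 47.6% and 51.5% in HF, 24.3%, 26.5% and 17.5% in YD, and 31.2%, 34.7% and 27.8% in RD. Relative to SD, the mean number of marked ribosomal protein genes in YD was 0.787 of that in SD, and the mean share of all protein-coding genes was 0.575 of it.

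The islands were of ordinary width for a gene with an island. Their median width was 2200, 1700 and 2000 bp in SD, 1800, 2400 and 2600 bp in CR, 2800, 1800 and 2600 bp in HF, 2200, 1400 and 1100 bp in YD, and 1400, 2000 and 1400 bp in RD. In every library this was between 90% and 130% of the median width over all marked protein-coding genes of that library. By score percentile the genes stood high among all protein-coding genes. The median lay between 83.9 in CR replicate 1 and 91.3 in CR replicate 3. Genes without an island count in this percentile, so any marked gene stands high where few genes are marked. Counted as a place in the list of islands, the median ran from 1713.5 in CR replicate 3 to 4689 in RD replicate 2. As a share of the length of the list, it ran from 5.08% from the top in CR replicate 3 to 33.1% in YD replicate 2. When only genes marked in all 15 libraries were taken, the 34 ribosomal protein genes had a median percentile of 93.0 and a median width of 2200 bp, and the 2059 protein-coding genes had 92.6 and 2400 bp. The islands of genes marked throughout were thus of a like rank and width inside and outside the family.

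The order of the genes was partly kept from library to library. Over the 77 core genes, the Spearman correlation of a library's percentiles with the median of the other 14 was between 0.480 in YD replicate 3 and 0.813 in YD replicate 1, with a median of 0.735. This is a description over genes, which share each library's depth and are not replicates.

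**Figure D2:**
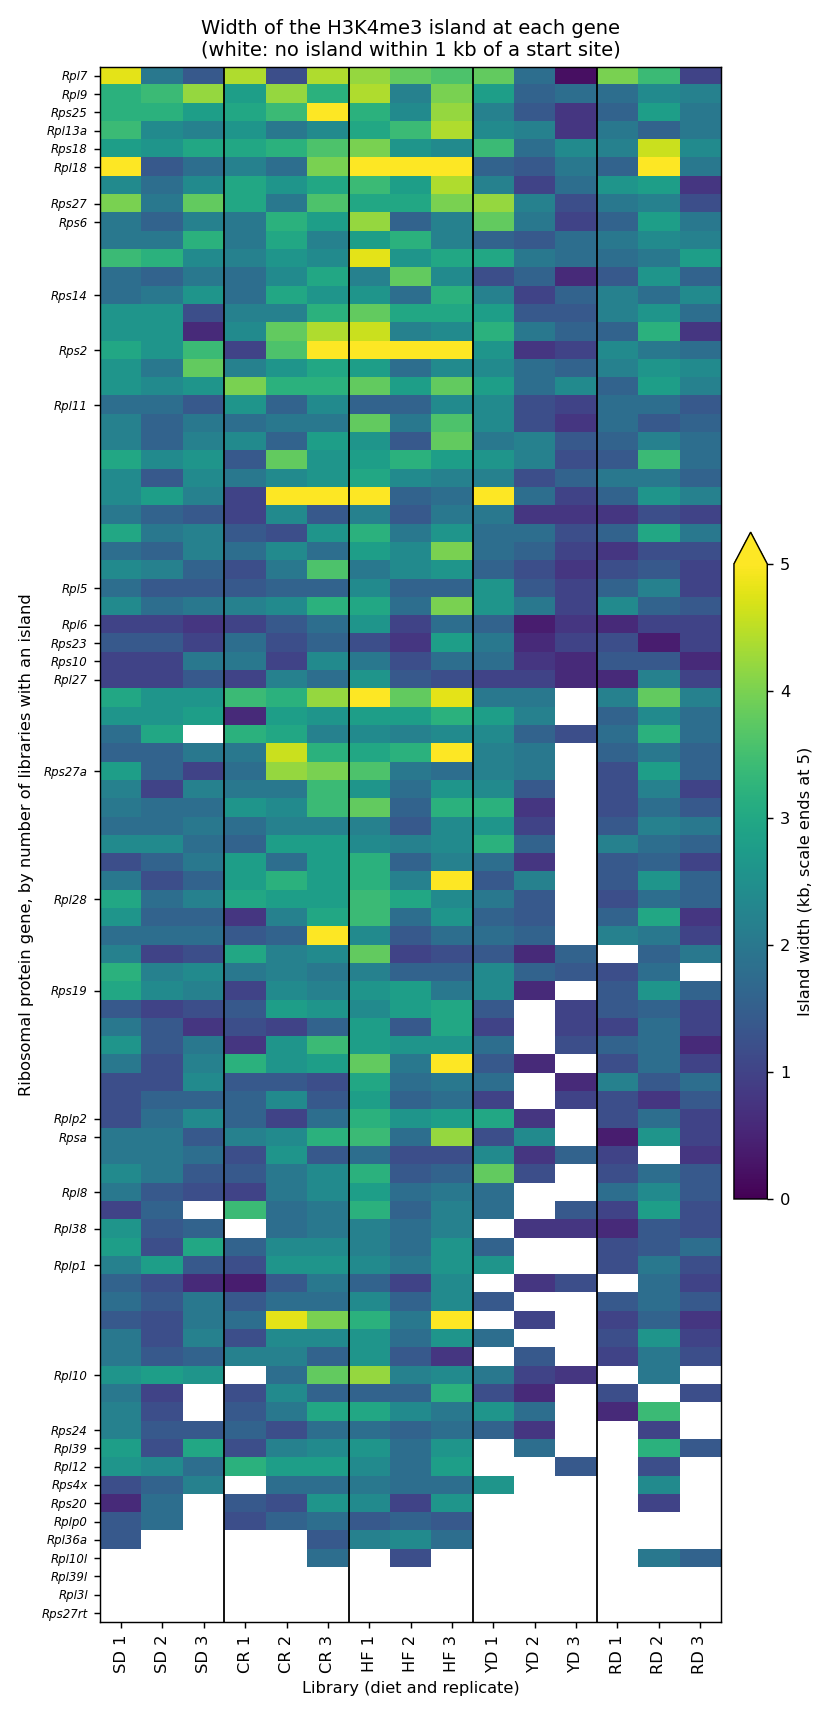
Width of the H3K4me3 island (kb, colour scale ending at 5) at each of the 85 ribosomal protein genes (rows, ordered by the number of libraries with an island and then by median percentile, with some rows named) in the 15 libraries (columns), with white where no island lay within 1 kb of a start site. White cells gather in the YD and RD columns and most of all in YD replicate 3, and the 3 lowest rows are white throughout.

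The highest percentiles belonged to a few large-subunit and small-subunit genes with broad islands. Among the 34 genes marked everywhere, Rpl7 had the highest median percentile (97.9), followed by Rpl9 (97.5), Rps25 (96.9), Rpl13a (96.9) and Rps18 (96.7). Rpl7, whose protein binds the large rRNA, also had the widest islands, with a median of 3600 bp. It measured 4800, 2000 and 1400 bp in SD, 4400, 1200 and 4400 bp in CR, 4200, 3800 and 3600 bp in HF, 3800, 1800 and 200 bp in YD, and 4000, 3400 and 1000 bp in RD. A single window was left in YD replicate 3, at percentile 83.9. The HF mice lay close together, and each of the other diets held at least 1 mouse with an island under 2000 bp. Next in width came Rps27 with a median of 3000 bp, and then Rps12, Rps18, Rps25 and Rpl9 with 2800 bp each.

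The narrowest islands were those of Rpl27 and Rpl6, with a median of 1000 bp, Rps23 with 1200 bp, and Rps10 and Rps15 with 1400 bp. Rpl27 measured 1000, 1000 and 1400 bp in SD and 600, 2200 and 1000 bp in RD, and Rpl6 measured 1000, 1000 and 800 bp in SD and 1600, 400 and 800 bp in YD. The lowest median percentiles among genes marked everywhere were 81.1 for Rpl27, 82.4 for Rps10, 82.4 for Rps23, 83.1 for Rpl6 and 88.4 for Rpl22. Of the 5 narrowest genes, 4 were also among the 5 lowest by percentile, and over the 77 core genes the Spearman correlation of median width with median percentile was 0.621 (Pearson 0.487), given as a description since the score adds up over the windows of an island.

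**Figure D3:**
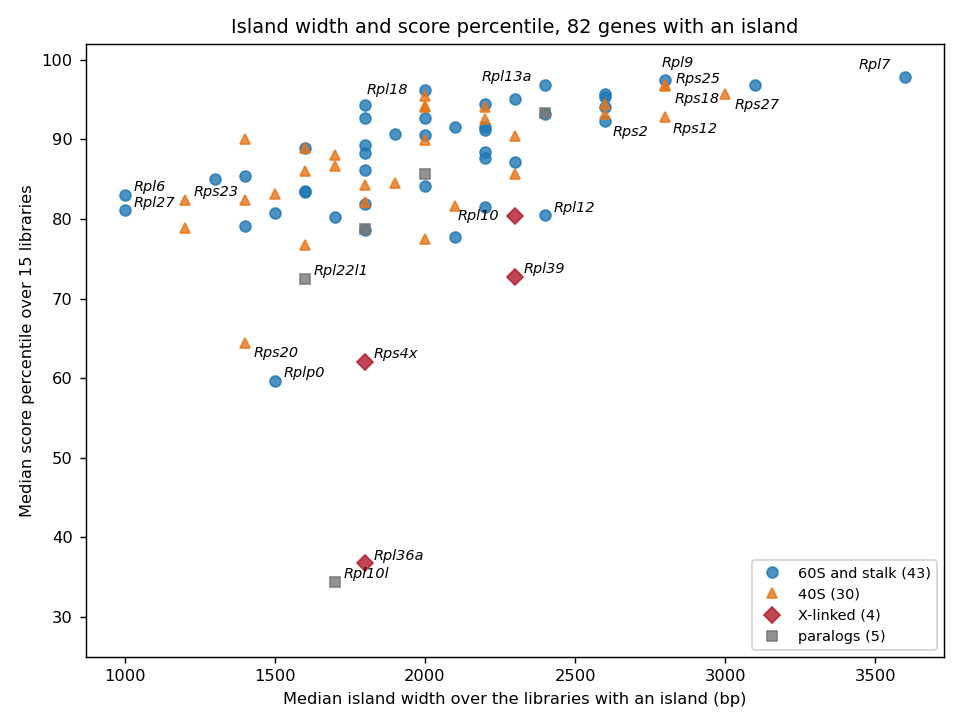
Median island width over the libraries with an island (bp) against the median score percentile over 15 libraries, for the 82 genes with an island in at least 1 library, by subunit, with the 4 X-linked core genes and the 5 marked paralogs set apart. Rpl7 lies at the upper right, Rpl6 and Rpl27 at the left, and Rplp0, Rps20, Rps4x, Rpl36a and Rpl10l below the rest.

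The subunits did not separate. Of 46 core genes of the 60S subunit, 19 were marked in all 15 libraries, with a median percentile of 88.4, and of 31 core genes of the 40S subunit 14 were, with a median of 88.1. The median width was 2000 bp in both.

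Genes with known roles beyond the ribosome were spread over this range. Rpl5 and Rpl11, which bind Mdm2 when ribosome assembly fails, were marked in all 15 libraries, with widths of 1000 to 2600 bp each. Rps6, the substrate of the S6 kinases, was marked in all 15 libraries with a median width of 2000 bp, and Rps14, a gene of marrow failure syndromes, likewise in all 15. Rps19, mutated in Diamond-Blackfan anaemia, was marked in 14 libraries, and its island was missing in YD replicate 3. It measured 3000, 2400 and 2200 bp in SD, 1000, 2400 and 2200 bp in CR, 2600, 2800 and 2000 bp in HF, 2400 and 600 bp in YD replicates 1 and 2, and 1400, 2600 and 1600 bp in RD. Rps27a, which encodes ubiquitin fused to a ribosomal protein, was marked in 14 libraries, and Rpl38, needed for the translation of Hox mRNAs in the embryo, in 13. Rpl13a, which also silences translation in inflammation, was marked in all 15 and held a median percentile of 96.9. Rpsa, also known as the laminin receptor, was marked in 14.

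The acidic stalk, which recruits the elongation factors to the large subunit, held 1 of the least often marked genes. Rplp0, the base of the stalk, had an island in 8 libraries, Rplp1 in 13 and Rplp2 in 14, and none of the 3 was marked in YD replicate 3. Rplp0 measured 1400 and 1800 bp in SD replicates 1 and 2, with no island in replicate 3. It measured 1200, 1600 and 1800 bp in CR and 1400, 1600 and 1400 bp in HF, and it was not marked in any of the 3 YD or 3 RD libraries. The CR and HF mice were thus all marked, and the corn-fed mice all unmarked, with SD between them. In the 8 marked libraries its percentile lay between 59.6 and 82.7. The flanks of the Rplp0 start held 87.6% unique 50-mers, against a median of 95.3% over the core genes.

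Rps20, a small-subunit protein gene, followed with 9 libraries. It measured 600 and 1800 bp in SD replicates 1 and 2, 1400, 1200 and 2600 bp in CR, 2400, 1000 and 2600 bp in HF and 1000 bp in RD replicate 2, and was unmarked in the other libraries, all 3 YD libraries among them. Rpl12 was marked in 11 libraries. It measured 2600, 2400 and 1800 bp in SD, 3200, 2800 and 2800 bp in CR, 2400, 1800 and 2800 bp in HF, 1400 bp in YD replicate 3 and 1200 bp in RD replicate 2, with no island in the other YD and RD libraries. It was thus present in YD replicate 3, the library with the fewest marked genes, and absent in the other YD libraries. Rpl10, Rpl10a, Rpl14, Rpl39 and Rps24 were each marked in 12 libraries.

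The 4 X-linked core genes were among the weaker ones. Rpl36a was marked in 5 libraries, Rps4x in 10, and Rpl10 and Rpl39 in 12 each. Their median percentiles ranged from 36.7 to 80.4, against a median of 88.9 over the 73 autosomal core genes, of which 33 were marked everywhere and 9 lay below the highest of the 4. Rpl36a measured 1400 bp in SD replicate 1, 1400 bp in CR replicate 3 and 2200, 2400 and 1800 bp in HF, and was unmarked elsewhere. Rps4x measured 1200, 1600 and 2200 bp in SD, 1800 bp in CR replicates 2 and 3, 2000, 1800 and 1800 bp in HF, 2600 bp in YD replicate 1 and 2400 bp in RD replicate 2. Among all protein-coding genes marked in at least 3 libraries, the median percentile was 41.2 for 281 X-linked genes and 74.3 for 10919 autosomal genes. The 41.2 is the place of a gene without an island in YD replicate 3, and the 36.7 of Rpl36a is that place in YD replicate 2. Of these X-linked genes 2.49% were marked in all 15 libraries, and of the autosomal genes 18.8%, so X-linked genes as a whole were marked less steadily too.

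Of the 8 paralogs and retrocopies, 3 had no island in any library. These were Rpl3l, which is expressed in muscle, Rpl39l, which is expressed in the testis, and the retrocopy Rps27rt. Rpl10l, a testis gene that stands in for Rpl10 in the male germ line, was marked at 1800 bp in CR replicate 3, 1200 bp in HF replicate 2 and 2000 and 1600 bp in RD replicates 2 and 3, 4 libraries in all. The broadly expressed Rpl22l1 and Rpl7l1 were marked in 13 libraries each, Rps27l, a target of p53, in 14, and Rpl36al in all 15, with a median percentile of 93.3. The Rpl36al island was shared in all 15 libraries with the start of Mgat2. The paralogs thus covered the whole range, from no island to islands as steady as those of the core genes.

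Pseudogenes of the family were counted in the same way. Of 294 annotated ribosomal protein pseudogenes with -ps in their name, 260 had no island within 1 kb in any library and none had one in all 15. Of the 251 that lie more than 5 kb from any protein-coding start, between 1 and 13 had an island per library, which is 0.398% to 5.18%. Rps19-ps3 with 14 libraries, Rps19-ps5 with 13 and Rpl12-ps2 with 9 were the only ones of these 251 marked in at least 8. Their islands were broad, with median widths of 11300, 3600 and 3200 bp, and what else lies under them was not examined. Reads of 50 bp cannot always be placed between a gene and its copies, so mappability was measured as the share of 50-mers within 1 kb of the start that occur once in the genome. The core genes had a median of 95.3% (range 78.4% to 100%), and the proteasome genes a median of 100%. The 12 core genes under 90% had a median percentile of 84.2 and a median width of 1550 bp, with 3 marked in all 15 libraries, and the 65 others had 88.9 and 2000 bp, with 30 marked everywhere. Mappability was not measured at the pseudogenes, so their counts are not a background level for the genes. The part of mappability in these values was not tested further.

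Many islands were shared with a neighbouring gene. In every library in which they were marked, 16 of the 82 marked genes had an island that also lay within 1 kb of another protein-coding start, and 58 never did. Taking those marked in all 15 libraries, the 11 always shared had a median percentile of 95.7 and a median width of 2600 bp, and the 19 never shared had 92.4 and 2000 bp. A wider island reaches more starts by the definition of sharing, so the difference in width is partly set by it. The shared genes include Rps10, whose only partner was the annotated gene RPS10-NUDT3. The shared partners included Lias, a lipoic acid synthase, at Rpl9, Trappc4 at Rps25, Vps52 at Rps18, Rab13 at Rps27, and Surf1, Surf2 and Med22 at Rpl7a. Rpl7, the highest and the widest, shared its island with Rdh10, a retinol dehydrogenase gene, in 14 of 15 libraries. The values of Rpl7, Rpl9, Rps25, Rps18 and Rps27 were therefore largely those of islands that also lay within 1 kb of another start. Whether an island held both starts, and the share of each gene in it, was not measured.

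The islands leaned into the genes. Over the 34 genes marked everywhere, the island reached a median of 742 bp upstream and 1452 bp downstream of the principal start, and 30 of the 34 (88.2%) reached further downstream, as did 73.8% of the 2059 protein-coding genes. Because the genes are short, with a median length of 3.29 kb against 17.4 kb for all protein-coding genes, a median of 45.4% of the gene body lay under the island, against 7.16% for all genes marked everywhere. At Rps27, of 1.13 kb, the whole gene lay under the island in the median library. The genes also carry 58 snoRNAs in 30 hosts. Of the genes marked everywhere, the 13 hosts and the 21 others had the same median width of 2200 bp. The observed to expected ratio of CpG was 0.817 in the median core gene, 0.575 in the median protein-coding gene and 0.766 in the median gene marked everywhere.

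Other translation genes, from a list written with earlier results known, gave values for comparison. Fau, which encodes a small-subunit protein fused to a ubiquitin-like one, and Rack1, a scaffold on the small subunit, were marked in all 15 libraries. So were 4 of 6 elongation factor genes on the list, with Eef1a1, which brings aminoacyl-tRNA to the ribosome, at a median percentile of 96.9 and Eef2, which moves the ribosome along the mRNA, at 95.8. Of 27 initiation factor genes 10 were, and of 7 other genes with a pyrimidine tract start 2 were. The 40 proteasome genes were marked everywhere in 55% of cases and the 78 mitochondrial ribosomal protein genes in 29.5%, with 24 and 33 genes marked in YD replicate 3. The mean share of marked mitochondrial ribosomal protein genes was 91.5% in SD, 98.7% in HF, 58.1% in YD and 71.8% in RD, and that of cytosolic core genes was 96.5%, 100%, 76.6% and 90.5%. In the same order it was 91.7%, 95%, 70.8% and 85.8% for the proteasome genes. For all 85 cytosolic genes it was 92.2%, 95.7%, 72.5% and 87.1%, close to the proteasome genes.

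Diet was compared in limma fits over all 15 libraries, on the percentile of 11200 genes marked in at least 3 libraries (82 of the 85 genes) and on the log2 width of 4541 genes marked in at least 2 of 3 libraries of every diet (66 of the 85), with the Benjamini-Hochberg adjustment over all genes of a fit and a threshold of 0.05. In the width fit a library without an island was dropped for that gene. No ribosomal protein gene passed the threshold in any of the 10 fits. The comparisons of CR, HF, YD and RD share the 3 SD libraries, so their values are given side by side and not set against each other. The labels do not say which litter a mouse came from. The library names read PATChIP in 5 cases (CR 1 and 2, HF 2 and 3, RD 1) and ChIP in the other 10. The 10 alone leave 1 CR and 1 HF mouse. With them the number of marked genes differed from SD by 3.67 in CR, 2.67 in HF and -2.83 in RD, and the median width by 633 bp in CR, 833 bp in HF and -267 bp in RD. In the fits on these 10, which assume that the lone CR and HF mice vary like the other groups, 242 genes over the genome passed by percentile in CR and 217 in HF, with no ribosomal protein gene among them.

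**Figure D4:**
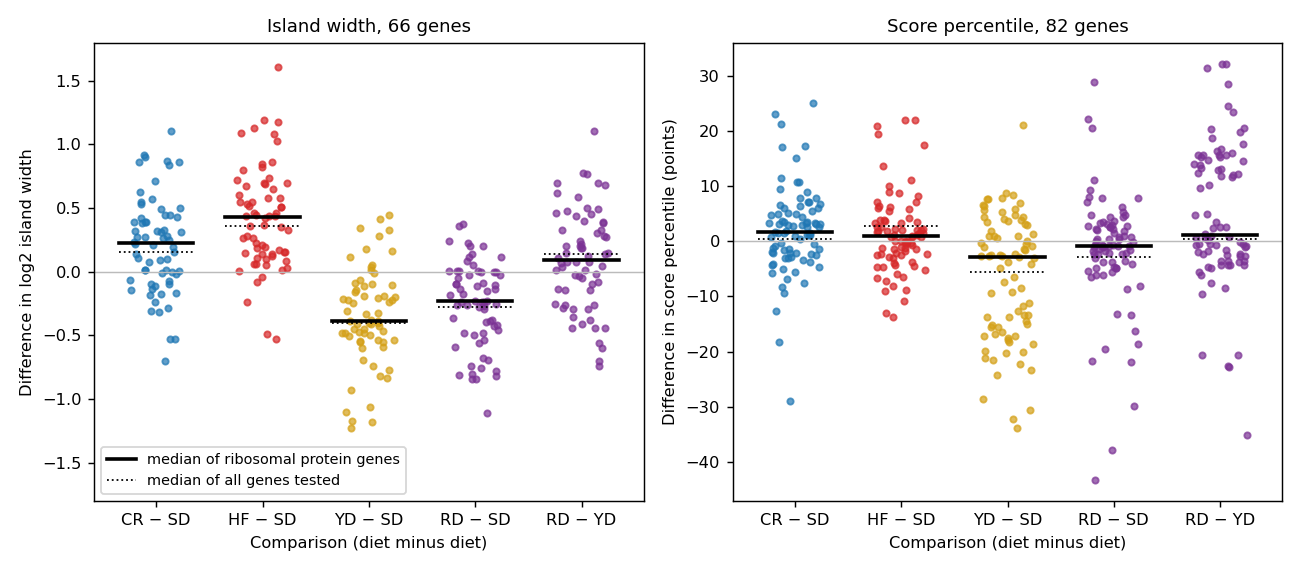
Fitted differences between diets for each ribosomal protein gene, in log2 island width (left, 66 genes) and in score percentile (right, 82 genes), with the median of the ribosomal protein genes (solid line) and of all genes tested (dotted line). In width the pair of medians differs by less than 0.08 in every comparison, and the points of HF minus SD lie mostly above 0 and those of YD minus SD and RD minus SD mostly below it.

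Caloric restriction left the genes marked much as on the standard diet. On average 79.7 ± 2.52 genes (SD, n = 3) were marked in CR and 78.3 ± 3.79 (n = 3) in SD, and the median width was 2267 ± 416 bp against 1967 ± 252 bp. The median difference in log2 width was 0.23 over the 66 genes and 0.16 over all genes tested. By limma, 0 of 82 genes passed the threshold for the percentile and 0 of 66 for width (2 and 3 at an unadjusted p under 0.05, against 6% and 2.91% of all genes), while 0.179% and 0% of all genes passed. No gene gained or lost its island by the rule of at least 2 of 3 mice against none, by which 2.98% of all genes gained and 0.56% lost one. Of the marked ribosomal protein genes only Rpl10l had no island in any SD mouse, so no other could gain one over SD by this rule. The islands of 7 of 61 genes marked in all 6 mice were wider in CR with no overlap (Rpl17, Rpl23, Rpl3, Rpl4, Rpl7a, Rps12 and Rpsa), against 6.61% of all genes, and none was narrower, against 1.37%. By the percentile, 7 of 82 genes were higher with no overlap (Rpl13a, Rpl37a, Rpl39, Rplp0, Rps12, Rps3a1 and Rpsa), against 4.16% of all genes, and 2 were lower (Rpl10 and Rpl4), against 4.07%. Rpl3, a core protein near the peptidyl transferase centre, measured 2800, 3200 and 2800 bp in CR and 2000, 1200 and 1600 bp in SD (log2 difference 0.90, SE 0.38, adjusted p = 1). The largest width differences were those of Rpl36al (log2 difference 1.10, SE 0.57), Rps27a (0.92, SE 0.46) and Rpl3, with an adjusted p of 1 for each. In the percentile, the largest were those of Rpl10 (-28.9 points, SE 14.2), Rps3a1 (25.1, SE 13.6) and Rplp0 (23.0, SE 9.65), each with a missing island in 1 of the 6 libraries.

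On the high-fat diet every core gene was marked in each mouse and most islands were wider, as were those of other genes. The number marked was 81.3 ± 0.577 (SD, n = 3) against 78.3 ± 3.79 in SD, and the median width 2400 ± 529 bp against 1967 ± 252 bp, with overlapping ranges. Most sets of marker genes were also marked more often in HF. The mean was 73.3% of the 5 endothelial markers against 26.7% in SD, with a standard deviation of 30.6 points in either diet. It was 26.7% of the 5 Kupffer cell markers against 0%, with a standard deviation of 30.6 points in HF. For the 5 stellate cell markers it was 33.3% against 26.7%, and for the 5 cholangiocyte markers 13.3% against 6.67%. Lymphocyte markers stood at 6.67% in both. Hepatocyte markers stood at 100% against 90%, and all protein-coding genes at 51.2% against 39.6%. The part of other liver cells in the values of the ribosomal protein genes was not tested. The median difference in log2 width was 0.43 over the 66 genes, with 61 of them wider, and 0.36 over all genes tested. Wider in HF were 92.4% of the 66 genes and 84.9% of all genes tested. By limma, 0 of 82 genes passed for the percentile and 0 of 66 for width (5 and 6 at an unadjusted p under 0.05, against 6.12% and 6.67% of all genes), with 0.0625% and 0% of all genes passing. No gene gained or lost its island, against 7.83% and 0.123% of all genes. Only Rpl10l, unmarked in every SD mouse, could have gained one by the rule. The islands of 12 of 62 genes were wider in HF with no overlap (Rpl18, Rpl29, Rpl3, Rpl31, Rpl34, Rpl37a, Rpl4, Rpl7a, Rplp2, Rps12 and Rps2 among them), against 15.6% of all genes, and none was narrower, against 0.146%.

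The largest width differences between HF and SD were those of Rpl18, Rpl37a and Rpl17. Rpl18 measured 7000, 8000 and 6400 bp in HF, 5000, 1400 and 1800 bp in SD, 2200, 1800 and 4000 bp in CR, 1600, 1400 and 2000 bp in YD, and 1600, 6000 and 2000 bp in RD. The HF values lay above all 12 others. Its log2 difference was 1.61 (SE 0.51, 95% interval 0.54 to 2.68, 3.05-fold), with an adjusted p of 0.666 by limma. In all 15 libraries the island is shared with the start of Sphk2 or Fam83e. Rpl37a, with a log2 difference of 1.19 (SE 0.36, adjusted p = 0.666), measured 2400, 2800 and 3000 bp in HF and 1400, 1000 and 1200 bp in SD, so the groups did not overlap. Rpl17 had 1.18 (SE 0.47, adjusted p = 0.666), with 3800, 2000 and 8000 bp in HF and 2000, 1200 and 2200 bp in SD, which overlap.

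Rps2, whose protein lines the mRNA entry of the small subunit, showed the same kind of broadening. It measured 6400, 5600 and 7200 bp in HF, 3000, 2600 and 3400 bp in SD, 1000, 3600 and 6000 bp in CR, 2600, 800 and 1000 bp in YD, and 2400, 2000 and 1800 bp in RD. Its mean percentile was 99.4 in HF and 90.5 in SD, a difference of 8.94 points (SE 3.09, adjusted p = 0.358 by limma), and its log2 width differed by 1.09 (SE 0.53, adjusted p = 0.697). The HF widths did not overlap those of SD, and CR replicate 3 fell among them. In 10 libraries the island was shared with Ndufb10 or Rnf151, and the flanks held 79.2% unique 50-mers. The largest differences in the percentile were those of Rpl36a (22.0 points, SE 8.42), Rps3a1 (21.9, SE 13.6) and Rplp0 (20.9, SE 9.65), all with an island missing in some SD library, and 4 of the 82 genes were higher in HF with no overlap (Rpl18, Rpl36a, Rpl5 and Rps2), against 8.06% of all genes, and 3 were lower (Rpl28, Rpl4 and Rps23), against 4.38%.

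**Figure D5:**
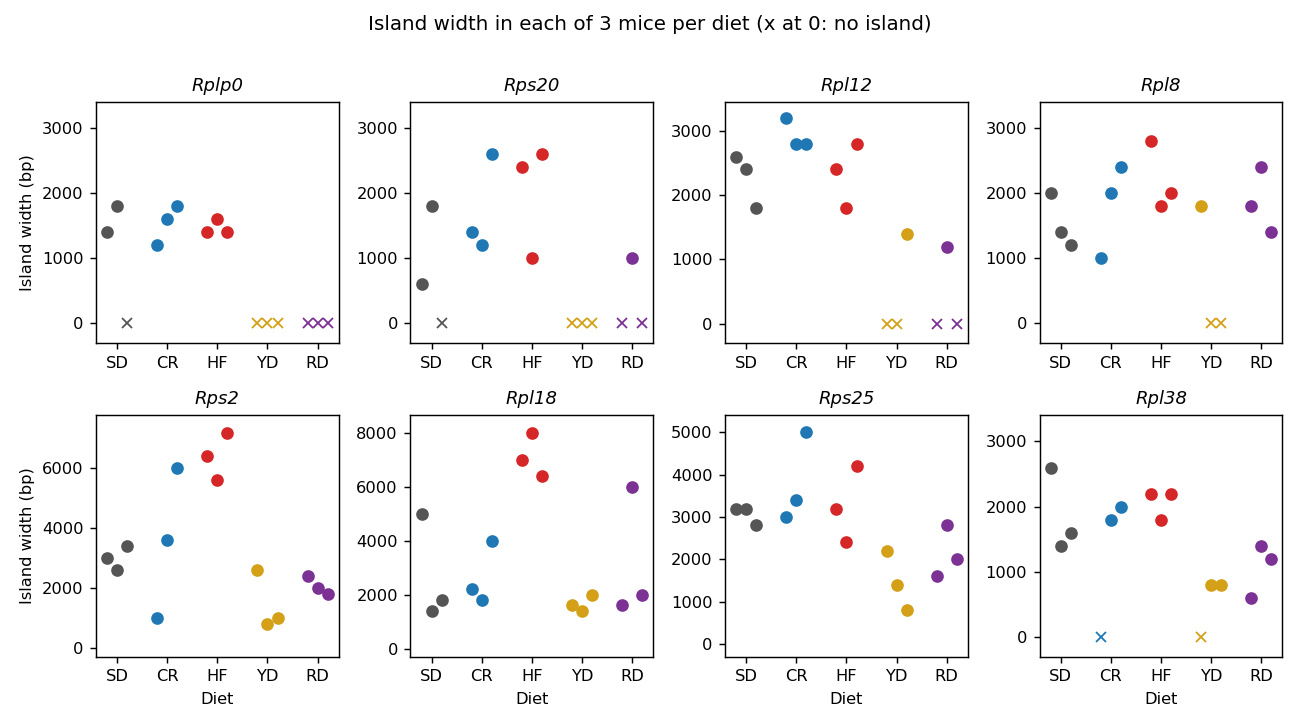
Island width (bp) in each of 3 mice per diet for 8 ribosomal protein genes, with a cross at 0 for a library without an island. Rplp0 and Rps20 have no island in any YD library, the HF points of Rpl18 lie above those of all other diets, and those of Rps2 above SD, YD and RD.

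On the yellow corn diet fewer of the genes were marked and the remaining islands were narrower, as across the genome. The number marked was 61.7 ± 12.3 (SD, n = 3) against 78.3 ± 3.79 in SD, with no overlap between the 3 and 3 libraries, and the share of all protein-coding genes was lower without overlap as well. The median width was 1567 ± 569 bp against 1967 ± 252 bp, with overlap. None of the 5 endothelial or 5 stellate cell markers was marked in YD, against 26.7% of each in SD. Cholangiocyte and lymphocyte markers stood at 0% against 6.67% each, and hepatocyte markers at 83.3% against 90%. Kupffer cell markers went the other way, with 6.67% in YD against 0% in SD. Stellate cell markers were also at 0% in CR, and endothelial and stellate cell markers at 6.67% each in RD. The part of other cells was not tested. Without YD replicate 3, the difference in the mean number marked was -9.83 rather than -16.7. The median difference in log2 width was -0.39 over the 66 genes, with 55 of them narrower, and -0.40 over all genes tested. Wider in YD were 16.7% of the 66 genes and 17.7% of all genes tested. By limma, 0 of 82 genes passed for the percentile and 0 of 66 for width (6 and 4 at an unadjusted p under 0.05, against 12.4% and 12.7% of all genes), and 0% of all genes passed in both.

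Only Rplp0 and Rps20 lost their island in YD by the rule of at least 2 of 3 SD mice against no YD mouse, or 2 of the 82 marked genes, while 15.8% of all genes did. None gained one, which only Rpl10l could by the rule, against 0.0613%. The islands of 4 of 37 genes marked in all 6 mice were narrower with no overlap (Rpl27a, Rpl9, Rps16 and Rps25), against 13.1% of all genes, and none was wider, against 0.207%. By the percentile, 2 of 82 genes were lower with no overlap (Rpl26 and Rpl28), against 9.22%, and 2 were higher (Rpl15 and Rpl6), against 2.29%. Rps25, which some viral mRNAs need to start translation, measured 2200, 1400 and 800 bp in YD and 3200, 3200 and 2800 bp in SD. Its log2 difference was -1.18 (SE 0.38, 95% interval -1.98 to -0.38), with an adjusted p of 0.264 by limma. Rps2 had a log2 difference of -1.22 (SE 0.53, adjusted p = 0.368) and Rpl38 one of -1.17 (SE 0.43, adjusted p = 0.323), with no island at Rpl38 in YD replicate 1. In the percentile, Rpl12 (-33.7 points, SE 14.1) and Rplp1 (-30.6, SE 12.4) were among the 3 largest differences, with adjusted p of 0.320 and 0.306, and each had no island in 2 YD libraries.

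Rplp1 and Rpl8 had the same pattern within the YD group. Rplp1 measured 2200, 2800 and 1400 bp in SD and 2600 bp in YD replicate 1, with no island in YD replicates 2 and 3. Rpl8, which lies at the core of the large subunit, measured 2000, 1400 and 1200 bp in SD and 1800 bp in YD replicate 1, and was unmarked in the other YD libraries. YD replicate 1 thus held islands at these genes that the other YD libraries lacked. Rpl38 and Rps29 were the reverse, unmarked in YD replicate 1 and marked in YD replicates 2 and 3. YD replicate 1 had the most reads and the fewest islands, and the part of depth was not tested. Without YD replicate 1, 3 genes passed the threshold in the limma fit of the percentile, as did 1.06% of all genes. Rplp1 and Rpl8 were among them, at differences of -47.2 and -46.1 points and adjusted p of 0.0431 and 0.0122. Rps25 then passed for width, at a log2 difference of -1.53, where 7.69% of all genes did. Rps19 had a log2 difference of -2.07 in that fit. It rests on the 600 bp island of YD replicate 2 alone, since YD replicate 3 had no island there.

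On the purple corn diet the number of marked genes overlapped that of the standard diet, and most islands were narrower, as across the genome. The number marked was 74.0 ± 3.61 (SD, n = 3) against 78.3 ± 3.79, a difference of -4.33 that became -13.3 with the same number of highest-scoring islands taken from every list, and the median width was 1600 ± 346 bp against 1967 ± 252 bp. The median difference in log2 width was -0.23 over the 66 genes, with 49 of them narrower, and -0.28 over all genes tested. Wider in RD were 22.7% of the 66 genes and 24.7% of all genes tested. By limma, 0 of 82 genes passed for the percentile and 0 of 66 for width (5 in each at an unadjusted p under 0.05, against 7.56% and 6.52% of all genes), and 0% of all genes passed in both. Rplp0 alone lost its island, against 6.53% of all genes, and Rpl10l alone gained one, in 2 of 3 RD mice, against 0.368%. No other marked gene of the family could gain one over SD by the rule. The islands of 7 of 58 genes were narrower with no overlap (Rpl13a, Rpl29, Rpl41, Rpl9, Rps13, Rps15 and Rps2), against 10.6% of all genes, and none was wider, against 0.685%.

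Rpl12 had the largest percentile difference in RD, at -43.2 points (SE 14.1, 95% interval -73.2 to -13.3, adjusted p = 0.352 by limma), with percentiles of 34.4, 65.6 and 36.1 in RD and 90.7, 89.5 and 85.7 in SD. Its island was present in RD replicate 2 alone, and it is shared with Lrsam1, a divergent neighbour. Rpl10, a late-joining protein of the large subunit, had -37.9 points (SE 14.2, adjusted p = 0.518), and Rps24 -29.8 points (SE 12.4, adjusted p = 0.595), each marked in 1 of 3 RD libraries and all 3 SD libraries. By the percentile, 7 of the 82 genes were lower in RD with no overlap (Rpl10, Rpl12, Rpl7a, Rps19, Rps24 and Rps28 among them), against 5.36% of all genes, and none was higher, against 2.91%. In width, the largest differences were those of Rpl36 (log2 difference -1.11, SE 0.47), Rpl38 (-0.84, SE 0.39) and Rps27 (-0.84, SE 0.44), with adjusted p between 0.728 and 0.749.

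The purple and the yellow corn diet, which differ in anthocyanins, were compared directly. The number marked was 74.0 ± 3.61 (SD, n = 3) in RD and 61.7 ± 12.3 (n = 3) in YD, a difference of 12.3 genes with overlapping ranges, since YD replicate 1 had 72 and RD replicate 1 had 71. Without YD replicate 3 the difference was 5.5 genes, and with the same number of highest-scoring islands from every list it was 2. The median widths differed by 33.3 bp, less than the spread in each group. The median difference in log2 width was 0.09 over the 66 genes and 0.14 over all genes tested. By limma, 0 of 82 genes passed for the percentile and 0 of 66 for width (8 and 0 at an unadjusted p under 0.05, against 9.12% and 5.86% of all genes), and 0% of all genes passed in both. Rpl10l alone gained an island in RD, against 6.36% of all genes, and none lost one, against 0.406%. Only Rpl10l, Rpl36a, Rplp0 and Rps20 were unmarked in every YD mouse and could gain one by the rule. With no overlap, Rpl21 and Rpl23a were higher in percentile in RD (2 of 82, against 4.08% of all genes), Rpl10 and Rps27l lower (2, against 2.31%), Rpl27a wider (1 of 35, against 3.36%) and none narrower (against 0.591%). In the percentile the largest differences were those of Rpl10 (-35.1 points, SE 14.2, adjusted p = 0.481), Rpl7l1 (32.2, SE 11.8, adjusted p = 0.385) and Rpl8 (32.2, SE 11.1, adjusted p = 0.332). Rpl10 went against the others, with an island in all 3 YD mice and in 1 RD mouse. In width they were Rpl7 (log2 difference 1.10, SE 0.84), Rpl34 (0.78, SE 0.40) and Rpl21 (0.77, SE 0.48), with adjusted p of 0.937, 0.885 and 0.918. Without YD replicate 1, Rplp1, Rpl8 and Rpl7l1 passed the threshold for the percentile, at 45.1, 49.8 and 47.1 points, and without YD replicate 2 Rpl23a did, at 44.4 points, where 1.21% and 1.14% of all genes passed.

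The precision of these fits was limited by 3 mice per diet. The 95% interval of a single gene reached a median of 20.5 percentile points, and of 0.88 to 0.92 in log2 width, to either side of its difference.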

How the data were processed

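The 15 libraries come from PAT-ChIP for H3K4me3, 1 per liver. Single-end 50 bp reads were mapped by the authors with BWA (mm10), who removed reads with a MAPQ under 1, duplicates and other chromosomes with SAMtools, and called islands per library with SICER2 (fragment and window 200 bp, gap 400 bp, FDR under 0.05), without pooling. The deposited score of an island adds up, over its windows, the negative natural logarithm of each window's Poisson probability, and the deposited starts and ends are whole windows. Authors' comparisons were not used here.

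Islands within 1 kb of a GENCODE M21 start were assigned to genes. Read totals were recovered from single-window scores with an effective genome fraction of 0.74 (off a whole number by at most 0.00046), and the depth behind single islands is unknown, so no counting intervals are given. Fits used limma 3.58.1 (trend) in R 4.3.3 with diet as the only factor, and the rest Python 3.11.15, pandas 2.3.3 and numpy 2.4.6. Island assignment and fits were tested on simulated data. Sequences are from RefSeq (GRCm38.p6, the build of mm10).

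The genes and lists were chosen with earlier results of these data known. Named are the genes with the fewest libraries, the 5 at either end of width and of percentile among those marked everywhere, those past the threshold or otherwise the 3 with the largest difference in each fit, 16 genes with textbook roles, and the paralogs. Other genes were named after their values were seen. Some genes that these rules select are not reported here. P-values measure the spread between mice; mice of different diets with 1 number are not the same animal. Alternatives were other distances, island filters, scales, gene filters, library subsets, a fit with a replicate block, and fits leaving out each mouse.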

Additional observations from a re-analysis of the deposited data

How the results depend on the processing

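Of 145 alternative fits, 140 kept the count of 0 ribosomal protein genes past the threshold, those with 1 CR and 1 HF mouse (ChIP-named libraries alone) included, which say little of these diets. The exceptions were 3 genes by percentile in YD minus SD and 3 in RD minus YD without YD replicate 1, 1 gene in RD minus YD without YD replicate 2, 2 genes by width in YD minus SD without YD replicate 1, and 2 genes (Rpl18 and Rpl36a) by width in HF minus SD when absent islands were entered as 0 bp, where 3.90% of all genes passed. The counts with each mouse left out in turn thus ran from 0 to 3 by percentile in YD minus SD and in RD minus YD, from 0 to 2 by width in YD minus SD, and were 0 in the other fits. The 2 by width in YD minus SD include Rps19, which then had an island in only 1 YD library. A percentile of 0 for genes without an island, chosen after seeing the data, left all 5 counts at 0, while the genes called over the genome rose from 20 to 38 in CR, 7 to 217 in HF, 0 to 461 in YD, 0 to 72 in RD and 0 to 144 in RD minus YD.

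Of 118 alternatives for the number of marked genes and the median width, 115 moved by less than the spread between mice. As a percent of the median width of all genes, HF minus SD was -0.0748 points in place of 433 bp. With the 7825 highest-scoring islands of every list, the number marked differed by -13.3 in RD minus SD (-4.33 with all islands) and by 2 in RD minus YD (12.3). With each mouse left out in turn, the difference in the number marked ran from -0.833 to 2.67 in CR, 0.833 to 4.33 in HF, -21.8 to -9.83 in YD, -6.5 to -2.83 in RD and 5.5 to 17.5 in RD minus YD. That in median width ran from 133 to 533 bp in CR, 233 to 733 bp in HF, -717 to -167 bp in YD, -567 to -250 bp in RD and -200 to 350 bp in RD minus YD. Leaving out YD replicate 3 gave the values of -9.83, 5.5, -167 and -200, and leaving out YD replicate 1 those of -21.8, 17.5, -717 and 350. Without SD replicate 3 the number marked was lower in CR than in SD (-0.833).

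The replicate block gave 0 genes in all 10 fits. The deviations of same-numbered mice correlated at -0.0896 to 0.142 (mean 0.00304) in 30 pairs, 1 of them over 0.1. No clear pairing by number was seen, though a small effect shared by number could be hidden in such values.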
